A study of Mus musculus with 6 samples.

Results

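The 9 myelin genes *Mbp*, *Mog*, *Mag*, *Mobp*, *Cnp*, *Mal*, *Opalin*, *Cldn11* and *Ermn* were followed through the cells of mouse cortex and hippocampus. They were chosen by symbol as a fixed list, and all 9 were found in each of the 6 libraries, among 27514 gene identifiers that the libraries share. The study tested a quick way of dissociating small brain regions for single-cell RNA sequencing (scRNA-seq) of microglia and vascular cells. One suspension came from the cortices of 3 pooled female wild-type C57Bl/6J mice aged 3 weeks and another from the hippocampi of 3 pooled female mice of the same strain aged 5 weeks, with as much white matter as possible trimmed away. Each suspension was run as 3 technical replicates on droplets, with a unique molecular identifier (UMI) attached to every RNA that was captured. Each region therefore has 1 biological sample, the SDs below describe technical spread only, no p-value was computed, and region, age and preparation cannot be told apart.

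Myelin is the lipid-rich membrane that oligodendrocytes wrap around axons. Oligodendrocyte precursor cells (OPCs) divide and migrate, leave the cell cycle as committed and newly formed oligodendrocytes, and switch on the genes of the sheath as they mature. *Mbp* codes for myelin basic protein, which holds the cytoplasmic faces of the sheath together and whose RNA is carried out along the processes, and *Mobp* for a related basic protein. *Cnp* codes for a phosphodiesterase that keeps cytoplasmic channels in the sheath open. *Cldn11* codes for the claudin of its tight junctions, *Mal* for a proteolipid of membrane traffic, and *Mag* and *Mog* for surface proteins of the inner and outer face of the sheath. *Opalin* codes for a transmembrane protein and *Ermn* for a cytoskeletal protein of late oligodendrocytes. Microglia, the macrophages of the brain, engulf myelin, and droplets also take up RNA set free during dissociation, so that a UMI of these genes outside oligodendrocytes need not have been made in the cell that carries it.

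The libraries held 5834, 6121 and 5982 cortical and 5232, 5210 and 4894 hippocampal barcodes. The 9 genes supplied between 0.0478% and 0.0737% of all UMIs in the cortical libraries and between 0.895% and 0.947% in the hippocampal libraries. Of the barcodes that passed the filters, 13320 were cortical and 14210 hippocampal. Clusters were made without the 9 genes and named from markers that exclude them, so that the genes did not define the cells in which they were read. The cortex held 37 committed or newly formed and 37 mature oligodendrocyte-like cells, and no cluster of OPC-like cells. The hippocampus held 76 OPC-like, 148 committed or newly formed and 1074 mature oligodendrocyte-like cells. Libraries of a region shared barcodes, 22 to 33 per library in the cortex and 283 to 330 in the hippocampus, and 7 of the hippocampal mature oligodendrocyte-like cells carried a shared one.

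The sequences just upstream of *Cnp*, *Mag*, *Mobp* and *Mog* are shown because these genes differ in how early they appear below and because only these and *Opalin* held a motif that was searched. They are the 250 bases before the RefSeq start on GRCm38.p6, read in the direction of the gene. Capitals mark ACAAAG, a core motif of the SOX factors that drive oligodendrocyte development, and CTGGCAC or CTGGTAC, core motifs of the myelin regulatory factor MYRF, each on either strand.
Cnp, chr11:100574689-100574938, plus strand: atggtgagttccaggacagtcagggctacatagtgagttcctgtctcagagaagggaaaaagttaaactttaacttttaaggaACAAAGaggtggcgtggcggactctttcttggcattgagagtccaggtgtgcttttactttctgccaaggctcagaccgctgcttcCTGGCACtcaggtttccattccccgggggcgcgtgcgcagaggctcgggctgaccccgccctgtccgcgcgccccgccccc
Mag, chr7:30914864-30915113, minus strand: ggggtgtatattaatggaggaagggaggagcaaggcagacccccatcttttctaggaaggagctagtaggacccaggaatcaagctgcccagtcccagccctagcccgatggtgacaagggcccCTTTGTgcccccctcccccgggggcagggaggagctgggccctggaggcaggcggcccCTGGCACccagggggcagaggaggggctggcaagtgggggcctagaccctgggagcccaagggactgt
Mobp, chr9:120149492-120149741, plus strand: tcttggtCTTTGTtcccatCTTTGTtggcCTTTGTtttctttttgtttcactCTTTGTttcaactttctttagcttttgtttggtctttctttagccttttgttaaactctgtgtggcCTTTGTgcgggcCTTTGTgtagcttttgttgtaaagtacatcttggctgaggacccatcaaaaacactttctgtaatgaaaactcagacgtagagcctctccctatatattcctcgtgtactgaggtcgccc
Mog, chr17:37023399-37023648, minus strand: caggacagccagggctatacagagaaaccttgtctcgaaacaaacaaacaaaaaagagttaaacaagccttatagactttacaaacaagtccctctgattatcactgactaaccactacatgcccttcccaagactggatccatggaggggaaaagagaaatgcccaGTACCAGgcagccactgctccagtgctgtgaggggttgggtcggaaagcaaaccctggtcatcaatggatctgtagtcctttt
ACAAAG was found upstream of *Cnp*, *Mag*, *Mobp* and *Opalin*, and 16.5% of the 32851 promoters in the table held it. It occurred 6 times upstream of *Mobp*, between 243 and 120 bases before the start. CTGGCAC was found upstream of *Cnp*, 81 bases before the start, and *Mag*, against 4.19% of all promoters. CTGGTAC was found upstream of *Mog*, against 1.83%. The other SOX motif searched, AACAAT, was found in none of the 8 promoters and in 9.42% of all promoters, and no searched motif was found upstream of *Ermn*, *Mal* or *Cldn11*. *Mag* has 3 starts, and the one shown is the first in the order of listing. The second start holds the same SOX and MYRF motifs upstream, and the third holds no searched motif. *Mbp* had no entry. A match is a description of these letters, and motifs elsewhere were not searched.

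In hippocampal OPC-like cells the 9 genes were low, and all but *Cnp* and *Mbp* were near the floor. *Cnp* was found in 54 of the 76 cells. *Cnp* was the highest, at 54.0, 281 and 153 CPM (the gene's UMIs scaled to 1000000 UMIs of the same cells) in replicates 1, 2 and 3, from 14, 35 and 27 cells. *Mbp* followed at 54.0, 73.3 and 38.3 CPM, and 51 of the 76 cells had no *Mbp* UMI. Over the pooled cells *Mbp* stood at 57.9 CPM. Hippocampal cells outside the lineage held similar levels, 56.1 CPM in microglia-like, 72.4 CPM in astrocyte-like and 31.5 CPM in endothelial-like cells. *Mobp* and *Mal* stood at 16.3 and 19.3 CPM, against 13.4 and 15.0 CPM in microglia-like cells. The part of free RNA in these OPC-like levels was not tested. *Mag* had 1 UMI in all, *Mog* 2, and *Opalin* and *Ermn* 3 each. The 9 genes together came to 315 CPM, and values this low in 76 cells carry a wide counting error. A UMI marks 1 molecule whatever the length of its transcript, so CPM values are set side by side between genes without a length correction, although capture may differ between transcripts.

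Committed and newly formed cells already held much *Mbp* and *Cnp*. In the hippocampus *Mbp* stood at 6840, 6469 and 7064 CPM and *Cnp* at 5757, 5569 and 5723 CPM, and *Cnp* was found in all 148 cells while *Mbp* was missing from 6. *Cldn11* came next at 3325, 2310 and 2295 CPM, and *Mag* at 2462, 1720 and 1923 CPM. The remaining genes were far lower, with *Mobp* at 275 CPM and *Mog* at 251 CPM. *Mal*, *Opalin* and *Ermn* stood at 13.4, 13.7 and 5.56 CPM, and 127 of the 148 cells had no *Mal* UMI. Against OPC-like cells, 7 of the 9 genes were at least 2-fold higher in CPM, where 10.1% of the 11269 genes with at least 10 UMIs were. The exceptions were *Mal*, with 19.3 CPM in OPC-like cells, and *Ermn*.

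Mature oligodendrocyte-like cells held all 9 genes at high levels. In the hippocampus *Mal* led with 11829, 12156 and 11795 CPM, a mean of 11923 CPM over the pooled cells. *Cnp* followed with 7279, 7530 and 7292 CPM and *Cldn11* with 5880, 5819 and 5491 CPM. The order from *Mal* to *Cnp* to *Cldn11* held in each hippocampal replicate. *Mbp* stood at 4687, 4672 and 4629 CPM, *Mag* at 3443, 3615 and 3459 CPM, and *Mobp* at 3037, 3038 and 2933 CPM. *Mog* stood at 2695, 2855 and 2704 CPM. *Ermn*, at 1966, 1975 and 2004 CPM, and *Opalin*, at 1723, 1823 and 1679 CPM, were the lowest, and no replicate's value of *Opalin* reached that of *Ermn*. Together the 9 genes made up 42663 ± 757 CPM (SD, n = 3 technical replicates). A mature oligodendrocyte-like cell of the hippocampus had a median of 209.5 *Mal* UMIs and 92 *Mbp* UMIs, and only 8 of the 1074 had no *Mal*.

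**Figure D1:**
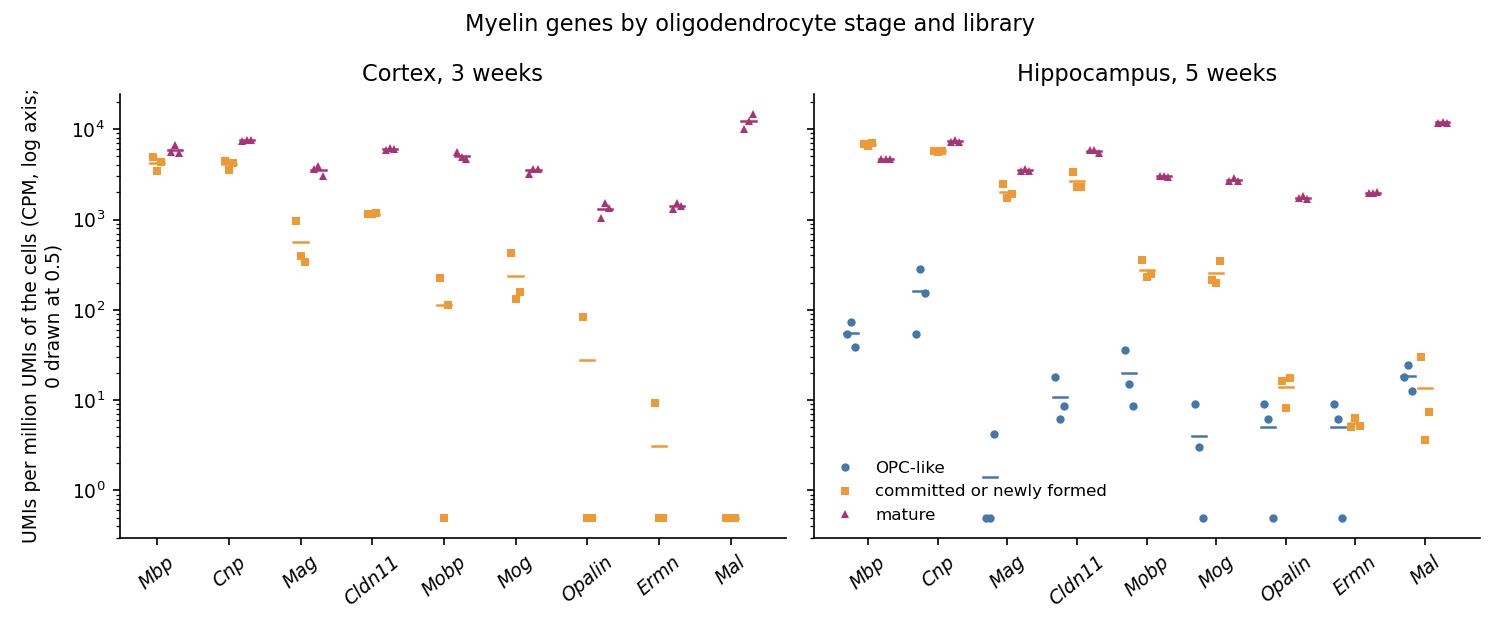
CPM of each myelin gene (log axis, 0 drawn at 0.5) in OPC-like, committed or newly formed and mature oligodendrocyte-like cells, one point per technical replicate, cortex and hippocampus in separate panels. In the hippocampus *Mbp* of committed cells, 6469 to 7064, lies above that of mature cells, 4629 to 4687, whereas *Mal*, *Opalin* and *Ermn* reach at most 30.2 before the mature stage.

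All 9 genes were at least 2-fold higher in mature than in OPC-like cells of the hippocampus, where 14.1% of 13061 genes were. On the log2 scale the ratio was smallest for *Cnp*, 5.21 with an interval of 4.97 to 5.47, followed by *Mbp* at 6.33 and *Mobp* at 7.52. *Mal* reached 9.27, *Cldn11* 9.33 and *Mog* 9.85. For *Mbp*, *Mobp*, *Mal* and *Cldn11* the OPC-like level under the ratio was close to that of microglia-like cells, with *Cldn11* at 8.91 and 9.91 CPM. *Mog*, *Opalin* and *Ermn* stood at 2.97, 4.45 and 4.45 CPM in OPC-like cells, against 5.26, 3.51 and 3.07 CPM in microglia-like cells. The highest ratio, 11.20 for *Mag*, rests on 1 UMI in OPC-like cells and has an interval of 8.73 to 16.51. Intervals here and below are exact, at 95%, and cover counting error only.

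The genes separated by how much of the mature level was present in committed and newly formed cells. In the hippocampus *Mbp* stood there at 145% of its mature CPM, with 146%, 138% and 153% in the replicates and an interval of 143% to 147%. *Cnp* stood at 77.1%, *Mag* at 57.8% and *Cldn11* at 46.0%. *Mobp* and *Mog* stood at 9.17% and 9.14%, and *Opalin*, *Ermn* and *Mal* at 0.789%, 0.281% and 0.112%. The replicates of *Mag*, 71.5%, 47.6% and 55.6%, overlapped those of *Cldn11*, 56.5%, 39.7% and 41.8%, while those of *Mbp* and *Cnp* lay apart. Mature cells were at least 2-fold higher than committed cells for 6 of the 9 genes, where 15% of all 12997 genes with enough UMIs were, the exceptions being *Mbp*, *Cnp* and *Mag*.

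In the cortex the same percentages were lower for the genes that came first. *Mbp* stood at 69.7% of its mature CPM, with 89.2%, 51.1% and 79.8% in the replicates, and *Cnp* at 53.2%. *Cldn11* stood at 19.2%, *Mag* at 14.2%, *Mog* at 6.17% and *Mobp* at 1.84%. *Mal* was not found in any of the 37 committed cells, with an exact upper limit of 8.37 CPM. Mature cells were at least 2-fold higher for 7 of the 9 genes, where 14.3% of 9003 genes were, the exceptions being *Mbp* and *Cnp*. With 9 to 15 cells per replicate and class, the SD of *Mbp* in mature cells was 673 CPM in the cortex against 30.1 CPM in the hippocampus.

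**Figure D2:**
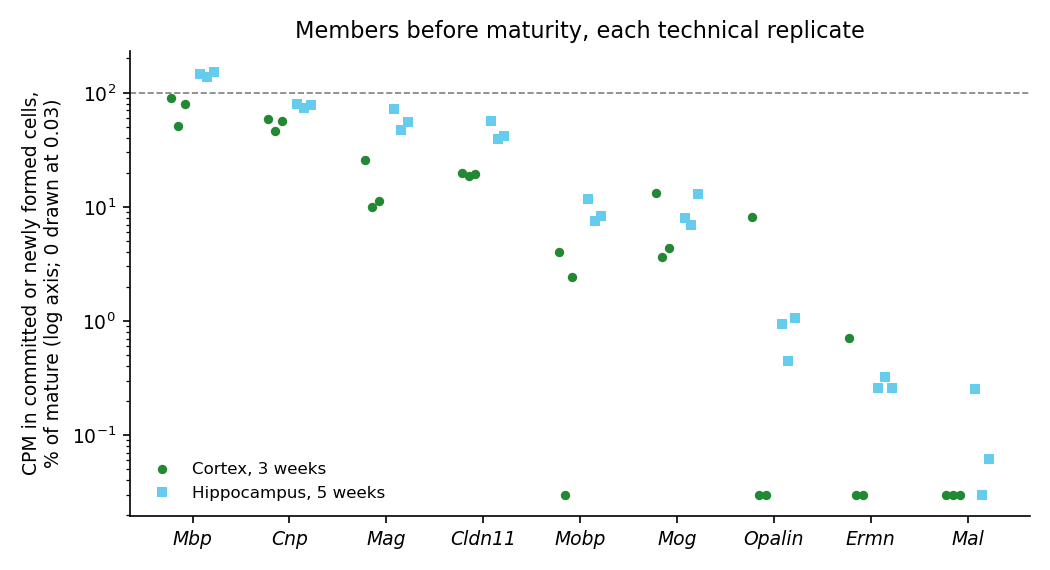
CPM in committed or newly formed cells as a percentage of the CPM in mature oligodendrocyte-like cells for each gene (log axis, 0 drawn at 0.03), one point per technical replicate and region, with a dashed line at 100%. Hippocampal *Mbp* lies above the line in all 3 replicates, *Cnp*, *Mag* and *Cldn11* below it, and *Mal*, *Opalin* and *Ermn* near or under 1% in the hippocampus.

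Both cortical classes, mature and committed, were mixed. When each lineage cell was classed from its own marker UMIs, again without the 9 genes, 25 of the 37 cortical cells of the mature cluster were mature, 6 were OPC-like and 6 committed, against 1064 of 1074 in the hippocampus. Of the 37 cortical cells of the committed cluster, 25 were committed by their own markers, 10 OPC-like, 1 mature and 1 unnamed. In the hippocampus 137 of 148 were committed. Summed OPC markers came to 587 CPM in the cortical mature cluster and 43.0 CPM in the hippocampal one. Of the 37 cortical cells of the mature cluster, 11 had no *Mal* UMI and 24 had more than 10. By their own markers the cortex had 16 OPC-like, 31 committed and 26 mature cells. Among these, *Mbp* of committed cells came to 107% of the mature level, *Cnp* to 55.8%, *Mag* to 45.5% and *Cldn11* to 30.4%, and *Mal* and *Ermn* were at 0. The difference in *Mbp* between stages in the cortex thus depended on how cells were assigned, whereas the hippocampal value was 151% by this assignment. The cortical direction changed under this assignment only. It stayed when cluster and own markers had to name the same stage, or when every cell was classed by its own markers. The 16 cortical OPC-like cells held *Mbp* at 975 CPM and *Cnp* at 1659 CPM, and *Mog*, *Mobp*, *Opalin* and *Ermn* were not detected in them.

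**Figure D3:**
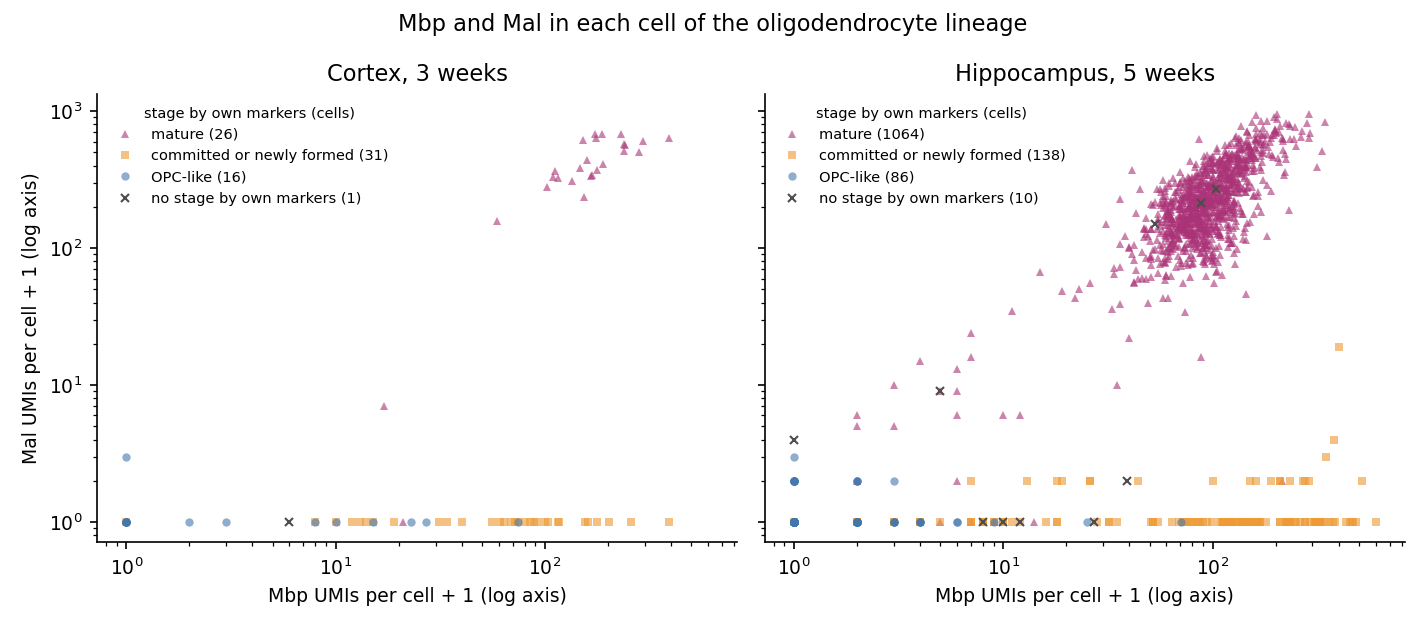
*Mbp* against *Mal* UMIs plus 1 in each cell of the oligodendrocyte lineage (both axes log), coloured by the stage that the cell's own markers give, cortex and hippocampus in separate panels. Committed cells spread along the *Mbp* axis with *Mal* at or near 0, and mature cells lie high on both axes.

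The regions were close in mature cells as the clusters gave them, with the cortical class mixed. None of the 9 genes differed by 2-fold in CPM, where 11.6% of 12528 genes were higher in the hippocampus and 14.1% lower. The lowest ratio of hippocampus to cortex was that of *Mobp*, 0.581 with an interval of 0.564 to 0.599, from 5573, 4987 and 4736 CPM in the cortical replicates. *Mbp*, with cortical values of 5536, 6666 and 5468 CPM, had a ratio of 0.789. *Opalin* and *Ermn* lay on the other side, at ratios of 1.36 and 1.40. Cortical *Mal* stood at 10058, 12181 and 14854 CPM and gave a ratio of 0.997. The summed level was 46344 ± 2569 CPM in the cortex, and among the 26 cells that were mature by their own markers it was 52143 CPM. With lineage cells classed by their own markers, mature cells held *Mobp* at 5878 CPM in the cortex and 3008 CPM in the hippocampus. *Mog* then stood at 4128 and 2753 CPM and *Mal* at 14395 and 11939 CPM. *Opalin* and *Ermn* remained higher in the hippocampus.

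Hippocampal mature cells fell into 4 subclusters that kept all 9 genes but differed in their amount. The summed level was 37834, 35751, 55963 and 43262 CPM in subclusters of 380, 328, 204 and 162 cells. *Mal* varied most in absolute terms, from 8923 to 18014 CPM, and the subcluster highest in the sum was highest in *Mal*, *Cnp*, *Mag*, *Mog*, *Mobp*, *Mbp*, *Opalin* and *Cldn11*, and not in *Ermn*. Doublet calls covered 13.4% of the cells in the subcluster with the lowest sum, and their part in its level was not tested. A further subcluster of 37 cells with all 11 microglial markers stayed unnamed. Its summed level was 29980 CPM, and 78.4% of its cells were called doublets.

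Other genes of the sheath did not all follow the 9 genes. Between mature and OPC-like cells of the hippocampus the median log2 ratio was 8.80 for the 9 genes and -0.73 over all genes tested. Of 14 genes of myelin lipid synthesis, 10 were at least 2-fold higher and none lower, with a median of 1.61. Aspartoacylase, *Aspa*, was at least 7.57 higher on the log2 scale and the fatty acid elongase *Elovl1* was 4.23 higher, while *Sqle*, of cholesterol synthesis, was at -0.01. Against OPC-like cells, committed cells were at least 2-fold higher in 13 of the 13 lipid genes with enough UMIs, where 10.1% of all genes were. Against committed cells, mature cells were higher in 3 and lower in 2, where 15% and 24.2% of all genes were, so these shares were near the background. Of 10 genes of the paranode, junctions and cytoskeleton, 8 were higher in mature than in OPC-like cells. They included *Cntn2*, which codes for an adhesion molecule, at 6.40 and *Anln* at 6.45, while *Bcas1* was at -0.11. Of 12 other membrane and structural genes 7 were higher, with *Tmem88b* at 6.72, the tetraspanin *Tspan2* at 5.61 and *Cd9* at -0.79.

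Regulators of the lineage were read against the same background. Of 12 transcription factors, 5 were higher and 5 lower in mature than in OPC-like cells, where 14.1% and 41.4% of all genes were, so the share that was lower was near the background. *Nkx6-2* was at least 7.20 and *St18* at least 4.67 higher on the log2 scale, and *Olig2*, which founds the lineage, was 2.54 lower. All 9 listed inhibitors of differentiation were lower. They included *Pdgfra*, the PDGF receptor of precursors, at -13.59, *Id2* at -5.85 and *Id4* at -2.10. Some listed genes had also served to name the stages, among them *Aspa*, *Tmem88b*, *Anln*, *Nkx6-2* and *Pdgfra*, and their values are no independent result. Without such genes the counts were 7 of 11 lipid genes, 5 of 9 membrane genes and 5 of 7 paranodal genes higher, 4 of 11 transcription factors higher and 5 lower, and 6 of 6 inhibitors lower.

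The genes whose level over cell classes was most like the mean of the 9 were *Nkx6-2*, with Pearson r = 0.996 averaged over the regions, *Prima1* at 0.993, *Btbd16* at 0.985, *Tmem88b* at 0.985, *Nkain2* at 0.983, *Tmem125* at 0.982, *Gpr62* at 0.979 and *Nipal4* at 0.977. The r was taken over 11 cortical and 13 hippocampal classes on log2(CPM + 5). These are descriptions, since 1 or 2 classes of oligodendrocytes set them and classes share libraries.

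Outside the lineage the 9 genes divided. *Mal*, *Cnp*, *Mag* and *Cldn11* each had at least 1 class of other cells well above the rest, while *Mog*, *Mobp*, *Opalin* and *Ermn* stayed low in all of them. Endothelial-like cells held 345, 365 and 350 *Mal* UMIs per 100 cells in the cortical replicates and 286, 282 and 278 in the hippocampal ones, and *Mal* made up 94.8% and 79.4% of the UMIs of the 9 genes there. *Mal* was found in 77.3% of cortical and 74.6% of hippocampal endothelial-like cells. Among endothelial-like clusters, the one led by the arterial genes *Gkn3*, *Sema3g* and *Bmx* held 564 UMIs per 100 cells in the cortex and 380 in the hippocampus, against 311 and 282 in the capillary-led clusters.

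**Figure D4:**
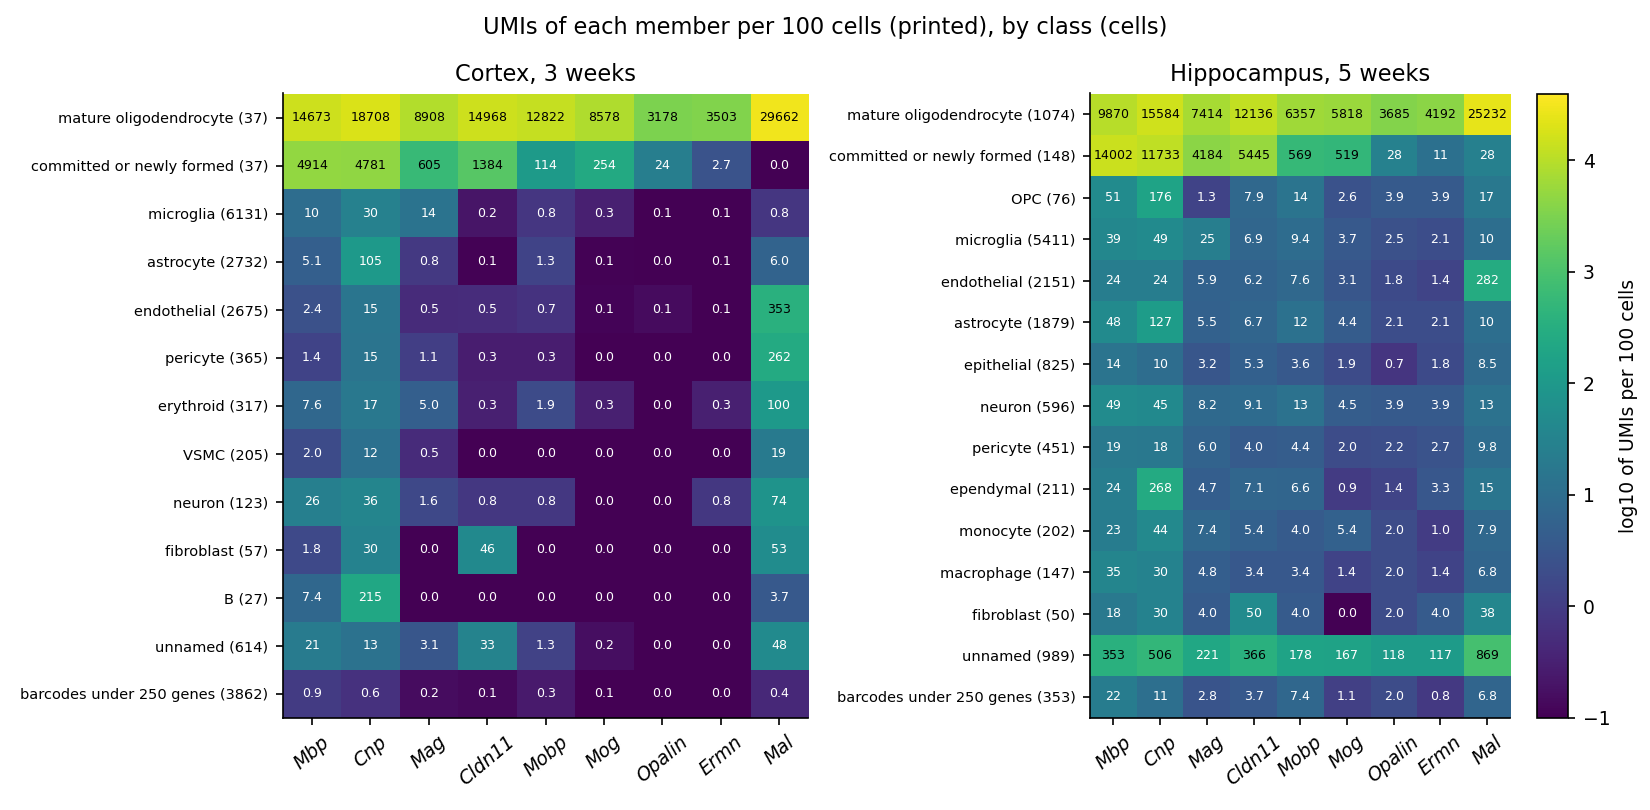
UMIs of each myelin gene per 100 cells (printed in each field, colour on a log10 scale) by named class, with the number of cells in each class, cortex and hippocampus in separate panels. *Mal* stands out in endothelial-like cells, with 353 and 282, and *Cnp* in astrocyte-like cells, with 105 and 127, next to much lower values of the other genes in the same rows.

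Several other classes that held *Mal* also held endothelial RNA. Pericyte-like cells held 244, 271 and 269 *Mal* UMIs per 100 cells in the cortical replicates but 11.9, 11.9 and 5.41 in the hippocampal ones. The 11 endothelial markers summed to 13369 CPM in cortical and 688 CPM in hippocampal pericyte-like cells, against 24986 and 26267 CPM in endothelial-like cells. Cortical erythroid-like and neuron-like cells held 82.1 to 123 and 17.5 to 118 *Mal* UMIs per 100 cells over the replicates, with endothelial markers at 5717 and 3948 CPM, and hippocampal neuron-like cells held 11.2 to 14.5 with endothelial markers at 186 CPM. An unnamed hippocampal cluster led by smooth muscle genes, with all 11 endothelial markers, held 329.7 *Mal* UMIs per 100 cells. Cortical smooth muscle-like cells, with endothelial markers at 823 CPM, held 19.0. The part of endothelial RNA in these levels was not tested. In microglia-like cells *Mal* was at 0.783 UMIs per 100 cells in the cortex and 10.5 in the hippocampus, and the log2 ratio of CPM in microglia-like to endothelial-like cells was -8.17 and -4.65.

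*Cnp* was found in many classes. Astrocyte-like cells held 107, 109 and 100 *Cnp* UMIs per 100 cells in the cortical and 133, 119 and 129 in the hippocampal replicates, and *Cnp* made up 88.6% and 58.1% of the UMIs of the 9 genes in them. Hippocampal ependymal-like cells held 268 and cortical B-like cells, of which there were 27, held 215. Astrocyte-like cells were higher than microglia-like cells in *Cnp* by 1.64 in the cortex and 1.44 in the hippocampus on the log2 scale. In CPM the hippocampal astrocyte-like cells, at 190.0, were close to the OPC-like cells, at 199. *Cnp* shares 154 exonic bases with *Dnajc7*, which lies on the opposite strand.

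Among the named classes outside the lineage, *Cldn11* rose above the rest in fibroblast-like cells. These held 45.6 UMIs per 100 cells in the cortex, from 57 cells, and 25 UMIs in 50 cells of the hippocampus. The cortical replicates ranged from 6.67 to 82.4 UMIs per 100 cells, so that these levels are poorly set. Microglia-like cells held 0.212 and 6.93. In the cortex the 614 cells of unnamed clusters held 201 *Cldn11* UMIs but 1 *Mog* UMI, against 26 *Cldn11* UMIs in all fibroblast-like cells. Which cells these were was not tested.

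*Mag* was higher in microglia-like than in endothelial-like or astrocyte-like cells. Microglia-like cells held 12.1, 13.7 and 15.3 *Mag* UMIs per 100 cells in the cortical replicates, against 0.486 over all endothelial-like and 0.842 over all astrocyte-like cells of the cortex. In the hippocampus they held 26.6, 25.5 and 24.2, against 5.90 in endothelial-like and 5.48 in astrocyte-like cells. Every replicate of the microglia-like cells lay above every replicate of both other classes. Barcodes with fewer than 250 genes, of which 3265 of 3862 in the cortex and 78 of 353 in the hippocampus were rich in hemoglobin RNA, held 0.155 and 2.83. They are no pure measure of free RNA, as the 275 hippocampal ones without much hemoglobin RNA held 12064 UMIs of choroid plexus epithelial markers per 100 barcodes, against 143 in microglia-like cells. The share of microglia-like cells with a *Mag* UMI was 12.4% in the cortex and 21.8% in the hippocampus, against 0.411% and 5.30% of endothelial-like cells. Thinned to 1000 UMIs per cell, it was 2.39% and 3.65%, against 0.0510% and 1.02%. Median depths were 5480 and 6640 UMIs for microglia-like and 7113 and 6634 UMIs for endothelial-like cells.

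Against endothelial-like cells, *Mag* in microglia-like cells was higher by 5.47 in the cortex and 2.21 in the hippocampus on the log2 scale of CPM. *Mbp*, *Mog* and *Cnp* were higher by 2.71, 2.12 and 1.65 in the cortex, with only 19 *Mog* UMIs in microglia-like and 3 in endothelial-like cells. Thus 4 of the 7 genes with enough UMIs were at least 2-fold higher, where 23% of 15059 genes were, and 1 was lower, where 25.8% were. In the hippocampus only *Mag* and *Cnp*, the latter by 1.15, were at least 2-fold higher among the 9 genes, where 21.7% of 14955 genes were, and *Mal* was lower, where 26.4% were. The hippocampal share that was higher is near its background and says nothing particular about the list. The cortical share, 4 of 7, is above the 23% of all genes. It rests on few genes, with few UMIs for *Mog*, and was not tested. Against microglia-like cells, astrocyte-like cells were lower in *Mbp*, *Mog*, *Mag* and *Cldn11* and higher in *Cnp* and *Mal* in the cortex, where 25.9% of genes were lower and 30.5% higher. In the hippocampus they were lower in *Mag* alone, by 2.15, where 26.5% of genes were, and higher in *Cnp* alone, where 28.1% were.

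*Mbp* in microglia-like cells stood at 10.3, 9.77 and 10.4 UMIs per 100 cells in the cortical replicates and at 44.9, 38.3 and 34.5 in the hippocampal ones. Endothelial-like cells held 2.43 in the cortex and 28.5, 22.8 and 19.5 in the hippocampus, and astrocyte-like cells 5.05 and 48.4. In the cortex microglia-like cells thus held the most *Mbp* of the 3 classes, and in the hippocampus astrocyte-like cells did. Hippocampal barcodes with fewer than 250 genes held 10.2, 46.6 and 10.2, so that 1 replicate set their pooled value of 22.4.

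**Figure D5:**
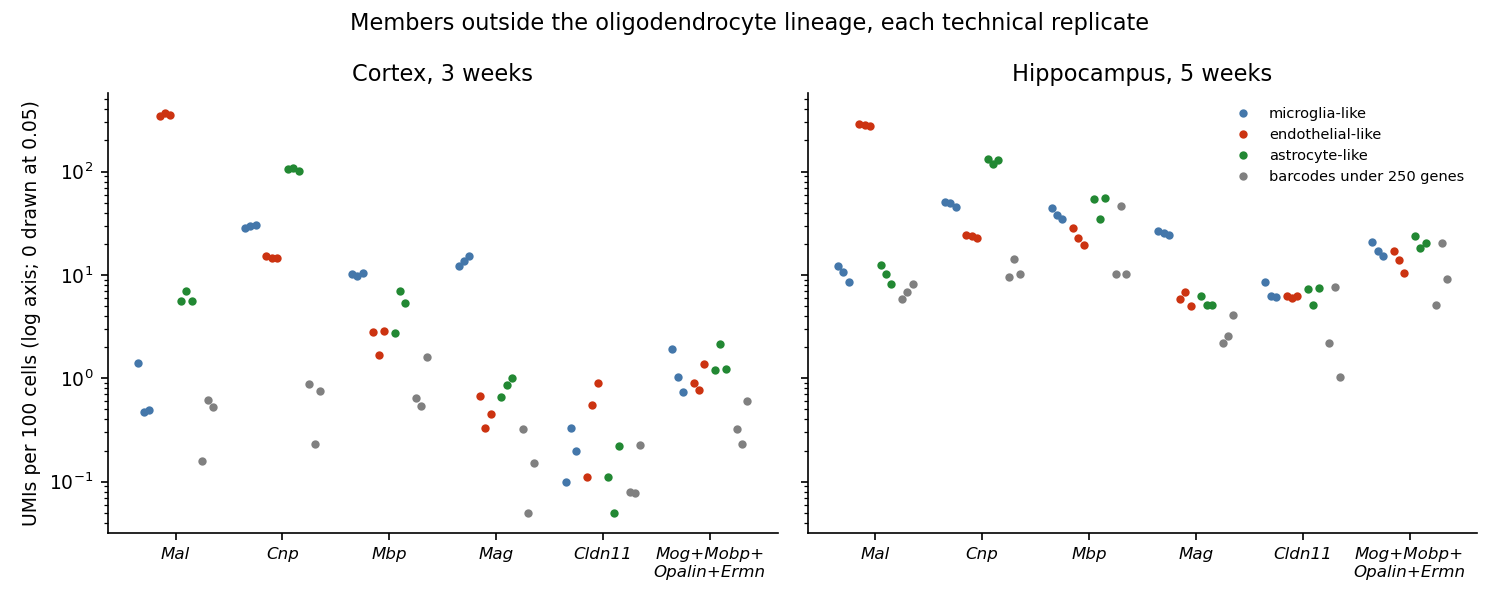
UMIs per 100 cells (log axis, 0 drawn at 0.05) of *Mbp*, *Mag*, *Cnp*, *Mal* and *Cldn11* and of *Mog*, *Mobp*, *Opalin* and *Ermn* summed, in the microglia-like, astrocyte-like and endothelial-like classes and in barcodes with fewer than 250 genes, one point per technical replicate. *Mag* lies highest in microglia-like cells in both regions, 12.1 to 15.3 and 24.2 to 26.6, *Mal* in endothelial-like and *Cnp* in astrocyte-like cells.

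*Mog*, *Mobp*, *Opalin* and *Ermn*, which had no class of their own outside the lineage, came to 1.90, 1.04 and 0.744 UMIs per 100 microglia-like cells in the cortical replicates, and to 1.01 in endothelial-like and 1.54 in astrocyte-like cells. In the hippocampus they came to 20.7, 17.2 and 15.2 per 100 microglia-like cells, 13.9 in endothelial-like, 20.8 in astrocyte-like cells and 11.3 in barcodes with fewer than 250 genes. The 3 classes of cells lay within 2-fold of each other in each region, and each was over 10-fold higher in the hippocampus than in the cortex. The 4 genes were grouped because none had a class of its own there. The likeness of the classes was thus partly fixed in advance and is no independent result. Cortical *Mog* alone stood at 0.543 CPM in microglia-like, 0.125 in endothelial-like and 0.169 in astrocyte-like cells, from 19, 3 and 3 UMIs. The hippocampal libraries held 1074 mature cells, and the source of these UMIs was not tested. For the 4 genes summed, the ratio of microglia-like to endothelial-like cells was 1.21 in the cortex, with an interval of 0.771 to 1.96. In the hippocampus it was 1.27, with an interval of 1.11 to 1.45. For comparison, astrocyte markers came to 186 UMIs per 100 microglia-like and 489 per 100 endothelial-like cells in the cortex and to 163 and 354 in the hippocampus. Neuron markers came to 3.12 and 37.1 and to 4.62 and 62.3. Erythroid, pericyte and fibroblast markers were also lower in microglia-like cells of both regions. Markers of choroid plexus epithelium went the other way in the cortex, at 85.1 and 1.46, and were nearly level in the hippocampus, at 143 and 146.

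All 9 genes together came to 54.4, 54.8 and 57.9 UMIs per 100 microglia-like cells in the cortical replicates and to 164, 148 and 134 in the hippocampal ones. A UMI of any of the 9 was found in 38.6% and 71.6% of microglia-like cells, and in 79.9% and 84.2% of endothelial-like cells, where most of it was *Mal*. Thinned to 1000 UMIs, the shares of microglia-like cells were 8.81% and 18.5%. In CPM, 6 of the 9 genes were more than 9-fold higher in hippocampal than in cortical microglia-like cells, *Mog* by 9.68-fold, *Mobp* by 10.0-fold and *Mal* by 10.9-fold, while *Mbp* was 3.15-fold, *Mag* 1.51-fold and *Cnp* 1.35-fold higher. All of the 9 genes but *Mag* and *Cnp* were thus at least 2-fold higher, where 6.8% of all genes were, and 3.49% of all genes were lower. The share of all genes that were over 9-fold higher was not computed. *Mag* and *Cnp*, the genes that were at least 2-fold higher in microglia-like than in endothelial-like cells of both regions, thus differed least between the regions.

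The mix of the 9 genes in microglia-like cells was unlike that of mature oligodendrocyte-like cells. In the cortex *Cnp* made up 53.2% of their UMIs, *Mag* 24.6%, *Mbp* 18.2% and *Mal* 1.41%, against 16.3%, 7.75%, 12.8% and 25.8% in mature cells. In the hippocampus the shares were 32.9%, 17.1%, 26.4% and 7.03%, against 17.3%, 8.21%, 10.9% and 27.9%. In both regions the share of *Mag* was over 2 times and the share of *Mal* under 1 in 3 of that in mature cells. Barcodes with fewer than 250 genes had *Mbp* at 35.0% and 38.3%, *Mobp* at 9.71% and 12.6% and *Mag* at 5.83% and 4.85%. The number of *Mbp* UMIs to each *Mog* UMI was 1.71 and 1.70 in mature cells, 19.3 and 27.0 in committed cells, 32.7 and 10.7 in microglia-like cells and 12 and 19.8 in these barcodes. The ratios in these barcodes rest on 3 and 4 *Mog* UMIs, with exact intervals of 3.79 to 60.9 and 7.42 to 74.3. Which part of the UMIs in microglia-like cells was free RNA, engulfed RNA or made by the cells was not tested.

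Most microglia-like cells held few UMIs of the 9 genes, but the genes differed in how evenly they were spread. The variance of *Mbp* UMIs over cells was 3.07 times their mean in the cortex and 4.82 times in the hippocampus. A single cell held up to 18 and 64 *Mbp* UMIs. The same ratio was 3.33 and 1.90 for *Mal* and 1.08 and 1.06 for *Mag*. For *Mal* a single cell held up to 10 and 18 of the 48 and 566 UMIs. Only 1 cortical and 2 hippocampal cells held 10 or more *Mal* UMIs, and the ratio without them was not computed. In the cortex 8 cells (0.130%) and in the hippocampus 33 cells (0.610%) held 10 or more UMIs of the 9 genes, and none and 2 held 50 or more. None of the 33 hippocampal cells was called a doublet. At least 5 different genes of the 9 were found in 2 cortical and 25 hippocampal cells. Cells with a *Mag* UMI carried a UMI of *Mog*, *Mobp*, *Opalin*, *Ermn* or *Cldn11* in 19.6% of cases in the hippocampus, as did 19.6% of the cells without *Mag*, and in 1.72% against 0.893% of cases in the cortex, with overlapping intervals. For *Mbp* the shares were 24.9% against 17.9% in the hippocampus and 4.69% against 0.704% in the cortex. In the hippocampus those genes were thus found at the same share of cells with and without *Mag*, and at a higher share of cells with *Mbp*.

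Microglial subclusters stayed within 2-fold of each other. In the cortex they held between 45.5 and 89.2 UMIs of the 9 genes per 100 cells, with the highest value in a subcluster of 148 cells whose median depth was 1649 UMIs. In the hippocampus they held between 105 and 181, with the highest value in 134 cells led by interferon-induced genes. The subcluster high in *Lpl*, *Csf1* and *Spp1*, genes known from microglia that take up myelin and debris, held 56.1 in the cortex, with an interval of 47.0 to 66.5, and 143 in the hippocampus, with an interval of 129.8 to 156.2. Both intervals held the mean of all microglia-like cells of their region, 55.7 and 149. The subcluster was deeper than all microglia-like cells, with median depths of 6834 against 5480 and 8309 against 6640 UMIs. In CPM it was lower, at 77.4 against 97.6 in the cortex and at 163 against 213 in the hippocampus.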

How the data were processed

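scRNA-seq was measured in 6 libraries from 2 suspensions, each of 3 pooled mice. The authors deposited raw UMI counts per gene and barcode, not normalized, for 31053 genes in the cortex and 27998 in the hippocampus, and every deposited barcode held at least 500 UMIs. The study names Cell Ranger 5.0.1 and mm10, and the headers of the deposited matrices name versions 3.0.1 and 3.1.0. Only 27514 identifiers are in the lists of both regions, so counts of the regions rest on different gene lists. CPM of each region are divided by the UMIs of its own list. Libraries held between 39662203 and 50024850 UMIs. The nine-week cortex preparation was not analysed here.

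Barcodes were kept when 250 to 6000 genes were detected and the mitochondrial share stayed under 25%. Counts were log-normalized to 10000, integrated per region over 2000 variable genes by canonical correlation analysis and clustered on 30 components at a resolution of 0.5 (Seurat 5.3.0, R 4.3.3, Matrix 1.6.5). The scaling by Pearson residuals and the SingleR annotation that the study names were left out. A cluster was named from at least 3 markers, each in at least 20% of its cells and at least 2-fold higher, out of 17 lists without the 9 genes. It stayed unnamed when its leading genes or a low depth spoke otherwise. Lineage clusters were subclustered, and the rule for naming stages was settled after a first output had been seen. Doublets were called with Scrublet (scanpy 1.11.5) at 0.8% per 1000 barcodes and kept in the values given. The naming recovered 17 of 17 simulated clusters. In each, all markers of a list were raised far above the naming limits, so recovery was nearly fixed in advance. Mixed or shallow clusters were not simulated, and the recovery does not cover them.

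CPM are UMIs summed over the cells of a class, divided by all UMIs of the same cells. A 2-fold call needed at least 10 UMIs over both classes. On simulated mature and OPC-like counts, which held counting error only, 96.6% of the exact Poisson intervals held the ratio over 13576 genes. All 4-fold changes were called and 6.21% of unchanged genes were called. The changed genes were picked among those with more OPC-like UMIs than most of the 9 genes had. The recall therefore does not cover most of the 9. Shares of cells have exact Clopper-Pearson intervals. Thinning to 1000 UMIs gives the expected share, and shallower cells were left out. Python 3.11.15 was used with numpy 2.4.6, scipy 1.17.1, pandas 2.3.3 and matplotlib 3.10.9. Upstream sequences come from a RefSeq table on GRCm38.p6, in which 8 of the 9 genes matched by symbol. In GENCODE M21 exons of *Cnp* overlap *Dnajc7* and exons of *Ermn* overlap *Galnt5*, both on the opposite strand, and 79 bases of *Mobp* overlap *Gm38642*, which was counted in the cortex only.

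All 9 genes are named. From each gene list the text names the pair with the largest and the gene with the smallest mature to OPC-like ratio, and the 8 genes with the highest r to the mean of the 9. The 9 genes, the lists and the markers were chosen with earlier results of these data known. Alternatives concerned doublets, shared barcodes, mitochondrial limit, resolution, integration, cell assignment, replicates, depth and unit.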

Additional observations from a re-analysis of the deposited data

Results flagged for a closer look

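*Mbp* moved in opposite directions between the regions when mature were compared with committed or newly formed cells. The log2 ratio of CPM was 0.52 in the cortex and -0.54 in the hippocampus, with the 3 replicates of each region on the same side. The difference between the regions was not tested, and both cortical classes were mixed. By their own markers, 25 of the 37 cells of the mature class were mature. Of the 37 cells of the committed class, 25 were committed and 10 OPC-like. With the cells of the lineage clusters classed by their own markers, committed cells held 107% of the *Mbp* CPM of mature cells in the cortex. The hippocampal value was 151%, so the directions were then not opposite. No other alternative that gave a value changed the cortical direction, including the other ways of using own markers.

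*Mog* was lower in astrocyte-like than in microglia-like cells of the cortex, with a log2 ratio of -1.69, and higher in the hippocampus, at 0.31, again in every replicate. The cortical ratio rests on 3 and 19 UMIs, and the difference between the regions was not tested.

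Barcodes that the filters left out also carried UMIs of the 9 genes. Those with over 6000 genes held 4108.5 UMIs per 100 barcodes in the cortex, from 200 barcodes, and 62245 in the hippocampus, from 378 barcodes, of which 107 (28.3%) held 50 or more. Barcodes with 250 to 6000 genes and at least 25% mitochondrial UMIs held 55.9 per 100 in the cortex and 685 in the hippocampus, from 555 and 395 barcodes.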

How the results depend on the processing

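Of the alternatives that gave a value, 1 changed a direction. The cortical log2 ratio of *Mbp* in committed to mature cells, -0.52, became 0.0912 with the cells of the lineage clusters classed by their own markers, an alternative added after seeing the data. Of the alternatives to the main results, 114 stayed within the spread between replicates and 26 moved beyond it, and for single genes 79 stayed and 10 moved without changing direction. The causes of these moves were not tested, unless the alternative itself changes the unit, the cells or the depth. The summed level in cortical mature cells, 46344 CPM, became 51595 with every cell of the region classed by its own markers whatever its cluster, 52143 with that done for the lineage clusters alone, 50773 without mitochondrial UMIs and 52037 when cluster and own markers had to name the same stage, also added after seeing the data. The hippocampal level, 42663 CPM, became 46196 without mitochondrial UMIs. The log2 ratio of mature to OPC-like cells, 7.08, became 5.05 at a mitochondrial limit of 10%, 5.19 at a resolution of 1.0 5.62 by own markers and 5.41 with those used in the lineage clusters alone. UMIs per cortical microglia-like cell, 0.557, became 0.537 at the 10% limit, 0.616 at a resolution of 1.0 and 0.5375 by own markers. The share of microglia-like cells with a UMI became 4.68% and 16.6% in the cortex and 9.96% and 32.8% in the hippocampus when cells were thinned to 500 and 2000 UMIs. The *Mbp* share in mature minus microglia-like cells, -5.45 percentage points in the cortex, became -2.77 at the 10% limit, -7.23 at a resolution of 1.0 and -7.14 both for cells whose stage was named by cluster and own markers alike and for the lineage clusters by own markers. The cortical log2 ratio of microglia-like to endothelial-like cells, -2.74, became -2.58 at the 10% limit, -2.59 at a resolution of 1.0, -2.55 with the 9 genes kept in the clustering and -2.09 in CPM. The hippocampal ratio, -1.26, became -1.16 in CPM, and the log2 ratio of hippocampus to cortex in microglia-like cells, 1.42, became 1.12.

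Without the filter on low counts, 26% of all genes rather than 14.1% were higher in mature than in OPC-like cells. Leaving out each technical replicate in turn moved no result beyond that spread. The spread comes from the same replicates, so this outcome was nearly fixed in advance and is no sign of stability. The counts of values that stayed include these alternatives. Without cortical replicate 1 the log2 ratio of *Mal* per cell in endothelial-like to microglia-like cells was 9.53 instead of 8.82. No paired analysis was possible because no test was run and replicate numbers only name technical replicates. At the 10% limit the cortex had no committed class. The levels per microglia-like cell in CPM were used in the ratios only, as another unit. Depth limits *Mag*, *Mog*, *Opalin* and *Ermn* in OPC-like cells, and cortical stages rest on 37 cells each.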

Other observations

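Outside microglia-like cells, *Mbp* was highest among the other cortical immune cells. A cortical cluster of 168 cells led by *H2-Eb1*, *Cd74*, *Pf4*, *Lyz2* and *S100a9*, genes of macrophages, antigen-presenting cells and monocytes, stayed unnamed and held 67.3 *Mbp* UMIs per 100 cells, against 10.2 in microglia-like cells. The replicates held 89.4, 70.1 and 44.4, from 22 of 47, 26 of 67 and 17 of 54 cells with an *Mbp* UMI and at most 7 UMIs in a cell. The cluster's median depth of 5177.5 UMIs was close to the 5480 of microglia-like cells. *Mog* and *Cldn11* were not found in it, and *Mag* and *Mobp* stood at 4.17 and 2.98 UMIs per 100 cells. This cluster was singled out after its values were seen, and whether the cells made the RNA was not tested. Outside the oligodendrocyte lineage, each named class that both regions had held more *Mbp* in the hippocampus than in the cortex. Hippocampal macrophage-like cells held 35.4 and monocyte-like cells 22.8 *Mbp* UMIs per 100 cells, against 39.2 in microglia-like cells.

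Shallow astrocyte-like cells of the hippocampus carried more *Mbp* than deep ones. A cluster of 498 cells with a median of 1563 UMIs held 83.3 *Mbp* UMIs per 100 cells, and a cluster of 1287 cells with a median of 7824 UMIs held 37.3. For *Cnp* the order was the opposite, with 90.8 and 149 UMIs per 100 cells. In the cortex the shallow cluster, with a median of 1674.5 UMIs, held 1.83 *Mbp* UMIs per 100 cells and the deep one, with a median of 7882.5, held 6.59.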
